A study of Mus musculus with 10 samples.

Results

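The SLC25 family holds carrier proteins, most of them in the inner mitochondrial membrane. Its members were measured as mRNA in adult mouse heart muscle cells. They were taken as the rows of the deposited count table whose symbol is Slc25a followed by a number, with 1 family row left out by the rule of selection, and with at least 10 counts in at least 5 libraries. Of 46 such rows, 38 passed, out of 38355 genes in the table. The 10 libraries came from Epac1-PLN transgenic mice (5 libraries, from males in replicates 1 and 5 and females in replicates 2, 3 and 4) and from wildtype mice (5 libraries, from males in replicates 1 and 2 and females in replicates 3, 4 and 5). All mice were FVB/N adults without treatment, and each library is labelled as a biological replicate, from 1 mouse each by the design text. Epac1-PLN is a genetically encoded fluorescence (FRET) biosensor that the labels call cardiac specific. Neither labels nor design text name the promoter that drives it, the founder line or the age in weeks. The cells were isolated by Langendorff perfusion, in which the excised heart is perfused through its own vessels.

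SLC25 carriers share a fold of repeated membrane-spanning helices. Many of them swap one solute against another across the inner membrane, which is otherwise closed to most charged metabolites. In heart muscle they bring ADP and phosphate to the ATP synthase and take ATP out, move reducing equivalents in the malate-aspartate shuttle, and supply the matrix with coenzymes, amino acids and iron. Several members still have no settled substrate. Slc25a34 and Slc25a35 are 2 such members, closely related to each other and grouped by sequence with the oxaloacetate carrier of yeast.

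Of the 38 members, 1 passed an adjusted p of 0.05 for genotype (edgeR), beside 0.641% of all genes. This was Slc25a34, lower in Epac1-PLN cells, which did not pass in 4 of 21 alternative analyses. Slc25a42, a carrier that brings coenzyme A into the matrix, lay lower by a similar amount without passing the threshold. The stretch before the transcription start of these 2 genes is shown because they were the only members whose groups did not overlap. Of all genes, 2.75% had groups without overlap. Each line gives the 250 bases before the RefSeq start (build GRCm38.p6, minus strand, written 5′ to 3′), for Slc25a34 at chr4:141623835-141624084 and for Slc25a42 at chr8:70212282-70212531. Capitals mark matches, on either strand, to AGGTCA (the half-site of many nuclear receptors), CCAAT (the box bound by NF-Y), GGGCGG (a GC box), CACGTG (an E-box) or TGACGTCA (the cAMP response element).
Slc25a34: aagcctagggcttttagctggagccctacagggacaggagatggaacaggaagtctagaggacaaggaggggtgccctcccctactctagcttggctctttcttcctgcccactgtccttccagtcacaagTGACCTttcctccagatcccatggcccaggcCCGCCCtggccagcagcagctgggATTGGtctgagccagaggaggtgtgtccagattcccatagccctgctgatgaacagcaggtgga
Slc25a42: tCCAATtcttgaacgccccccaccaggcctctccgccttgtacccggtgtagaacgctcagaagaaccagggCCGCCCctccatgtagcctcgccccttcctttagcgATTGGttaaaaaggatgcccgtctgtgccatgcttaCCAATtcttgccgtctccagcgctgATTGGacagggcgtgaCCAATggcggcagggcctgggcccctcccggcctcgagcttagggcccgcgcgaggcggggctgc

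The Slc25a34 window held 1 nuclear receptor half-site, 1 CCAAT box and 1 GC box. The Slc25a42 window held 5 CCAAT boxes and 1 GC box, and 0 half-sites. Neither held the E-box or the cAMP response element. The letters found are common. Over 32851 RefSeq windows of the same length, 14% held the half-site, 33.8% a CCAAT box and 32.7% a GC box. The E-box (6.02%) and the cAMP response element (1.55%) were less common. Each share counts windows with at least 1 match, so it is no measure for 5 CCAAT boxes in 1 window. Of the 38 members 29 had a window in that table, and 6 of these had more than 1. Among the 29, 4 held the half-site, 17 a CCAAT box, 22 a GC box, 6 the E-box and 2 the cAMP response element. A member was counted if any of its windows matched, so these counts are per gene and the shares above per window. A match is a run of letters and says nothing of binding.

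Library totals ranged from 10632224 to 20983754 counts. Levels are given in CPM, a gene's counts scaled to library size with TMM factors. Rapgef3, which encodes Epac1 and takes up reads of the biosensor, had 1241 to 1741 CPM in Epac1-PLN libraries, against 10.4 to 15.9 CPM in wildtype libraries, so each library matched its labelled genotype. Summed over 8 cardiomyocyte markers, levels were 69863 to 86100 CPM in Epac1-PLN and 71937 to 85909 CPM in wildtype libraries. These 8 include Pln, whose name the biosensor shares, at 10249 ± 1428 CPM in Epac1-PLN and 11105 ± 1292 CPM in wildtype cells (SD). Whether Pln takes up reads of the biosensor was not tested. Summed markers of other cell types were at 338 to 692 CPM in Epac1-PLN against 348 to 572 CPM in wildtype libraries for 6 endothelial genes, and at 223 to 376 against 216 to 399 CPM for 6 fibroblast genes. For 6 macrophage and leukocyte genes they were at 25.7 to 55.8 CPM in Epac1-PLN against 22.5 to 48.1 CPM in wildtype libraries, and for 5 smooth muscle and pericyte genes at 415 to 795 against 274 to 713 CPM. The 5 adipocyte markers summed to at most 1.13 CPM in Epac1-PLN and 1.69 CPM in wildtype libraries, with Ucp1 at 0 counts in all 10. Erythroid genes, 4 in the table, summed to 5.51 to 40.6 CPM in Epac1-PLN against 4.91 to 40.3 CPM in wildtype libraries. No tested gene of these marker lists passed an adjusted p of 0.05 for genotype (edgeR), and 0 adipocyte genes were tested. At the 0.641% of all genes that passed, a count of 0 says little about lists of this size. Epac1-PLN replicate 4 was least like the rest (median Spearman correlation 0.983, against 0.986 to 0.991 for each of the others) and had the highest endothelial sum.

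The family was led by a few carriers of energy metabolism. The 38 members together took 1.183% to 1.295% of all counts in Epac1-PLN libraries, against 1.148% to 1.396% in wildtype libraries. Their summed level was 12495 ± 714 CPM in Epac1-PLN libraries, against 12674 ± 1022 CPM in wildtype ones (SD, n = 5 each), a difference of -0.02 on the log2 scale. Slc25a4, the ADP/ATP carrier of heart and muscle, made up 59.4% of this sum, and Slc25a3, the phosphate carrier, 16.8%. Without these 2 genes the sum was 2732 to 2957 CPM in Epac1-PLN and 2887 to 3263 CPM in wildtype libraries. These ranges overlap, at a difference of -0.13 in log2. Within that sum, Slc25a11 was at 717 CPM in Epac1-PLN against 822 CPM in wildtype cells, and Slc25a34 at 236 against 361 CPM. A sum is weighted by its abundant members, and of the 38 members 17 lay higher and 21 lower. Slc25a34 accounted for 2.37% of the family sum and ranked 6th by CPM.

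Levels of different genes are compared per kb of exon, with the merged exon length of each gene in GENCODE M21. On that scale Slc25a4 stood at 3203 CPM per kb in Epac1-PLN, against 3150 CPM per kb in wildtype cells. Slc25a3 followed at 379 against 385 CPM per kb and Slc25a11, the oxoglutarate-malate carrier, at 338 against 388 CPM per kb. On this scale Slc25a3 lay above Slc25a11 in Epac1-PLN cells. In wildtype cells the gap between them was smaller than the spread between libraries. Both comparisons rest on the merged exon lengths, 5550 bases for Slc25a3 and 2120 bases for Slc25a11. In CPM, Slc25a3 was at 2104 against 717 for Slc25a11 in Epac1-PLN cells, and at 2134 against 822 in wildtype cells. Slc25a34 stood at 88.4 CPM per kb in Epac1-PLN, against 135 CPM per kb in wildtype cells, the fifth highest mean of the family over all libraries. Its neighbours were Slc25a5 (126 against 117 CPM per kb) and Slc25a13 (81.6 against 88.0 CPM per kb). The mean of Slc25a34 thus lay below that of Slc25a5 in Epac1-PLN cells. In wildtype cells its mean was the higher one, but by less than its own spread between libraries (SD 23.1 CPM per kb). Slc25a35, the paralogue of Slc25a34, stood at 2.17 against 2.33 CPM per kb. The lowest member was Slc25a53, at 0.150 CPM per kb in Epac1-PLN and 0.151 CPM per kb in wildtype cells.

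**Figure D1:**
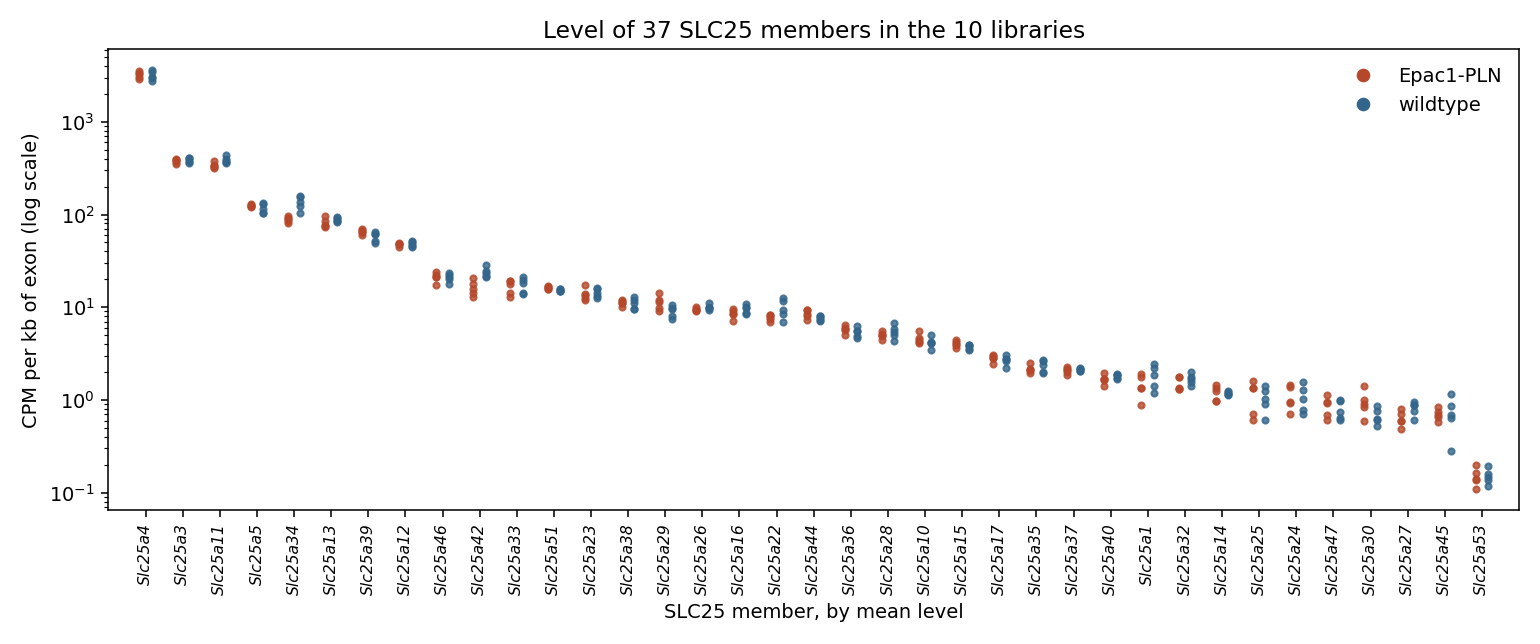
Level of 37 SLC25 members in CPM per kb of exon (log scale), ordered by mean level, with 1 point for each of 5 Epac1-PLN and 5 wildtype libraries. Slc25a4 stands apart at the top (3203 and 3150 CPM per kb) and Slc25a53 at the bottom (0.150 and 0.151 CPM per kb).

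Of the 46 rows, 8 did not pass the count minimum. Slc25a31, the ADP/ATP carrier known from the testis, came closest, with 4 to 13 counts in Epac1-PLN and 0 to 10 counts in wildtype libraries and 4 libraries at 10 or more. The nearest member inside was Slc25a45, whose lowest count was 10. The others with any counts, Slc25a2, Slc25a18, Slc25a21, Slc25a41, Slc25a43 and Slc25a48, had at most 6 counts in any library. Slc25a54 had 0 counts in all 10, and 3 counts over all libraries would be 0.0200 CPM. All 38 members that passed had 10 or more counts in every library, so none passed through 1 genotype alone.

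For genotype, 12629 genes went through the quasi-likelihood F test of edgeR, with sex in the model and Benjamini-Hochberg adjustment at 0.05. A gene past that threshold is called. Over all genes 0.641% were called, 0.198% as lower and 0.443% as higher. Among the 38 members 1 was called as lower and 0 as higher, and 6 had an unadjusted p under 0.05 (15.8%, against 12.2% of all genes). DESeq2 called 2 members, Slc25a34 and Slc25a42 (2.1% of all genes), and limma-voom called Slc25a34 (0.594% of all genes). Of the members 17 lay higher and 21 lower, with a median log2 fold change of -0.02, beside 0.00 over all genes. The median size of the fold change, in either direction, was 0.11 for the members and 0.10 for all genes. The 95% interval lay between -0.5 and 0.5 on the log2 scale for 26 members, so a change of that size was outside the interval for them. The fold change exceeded 0.5 in size for 3 members, Slc25a34, Slc25a42 and Slc25a30 (7.89%, against 3.59% of all genes). Slc25a30 was at that limit, at 0.501, and at 0.4996 with RLE scaling.

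**Figure D2:**
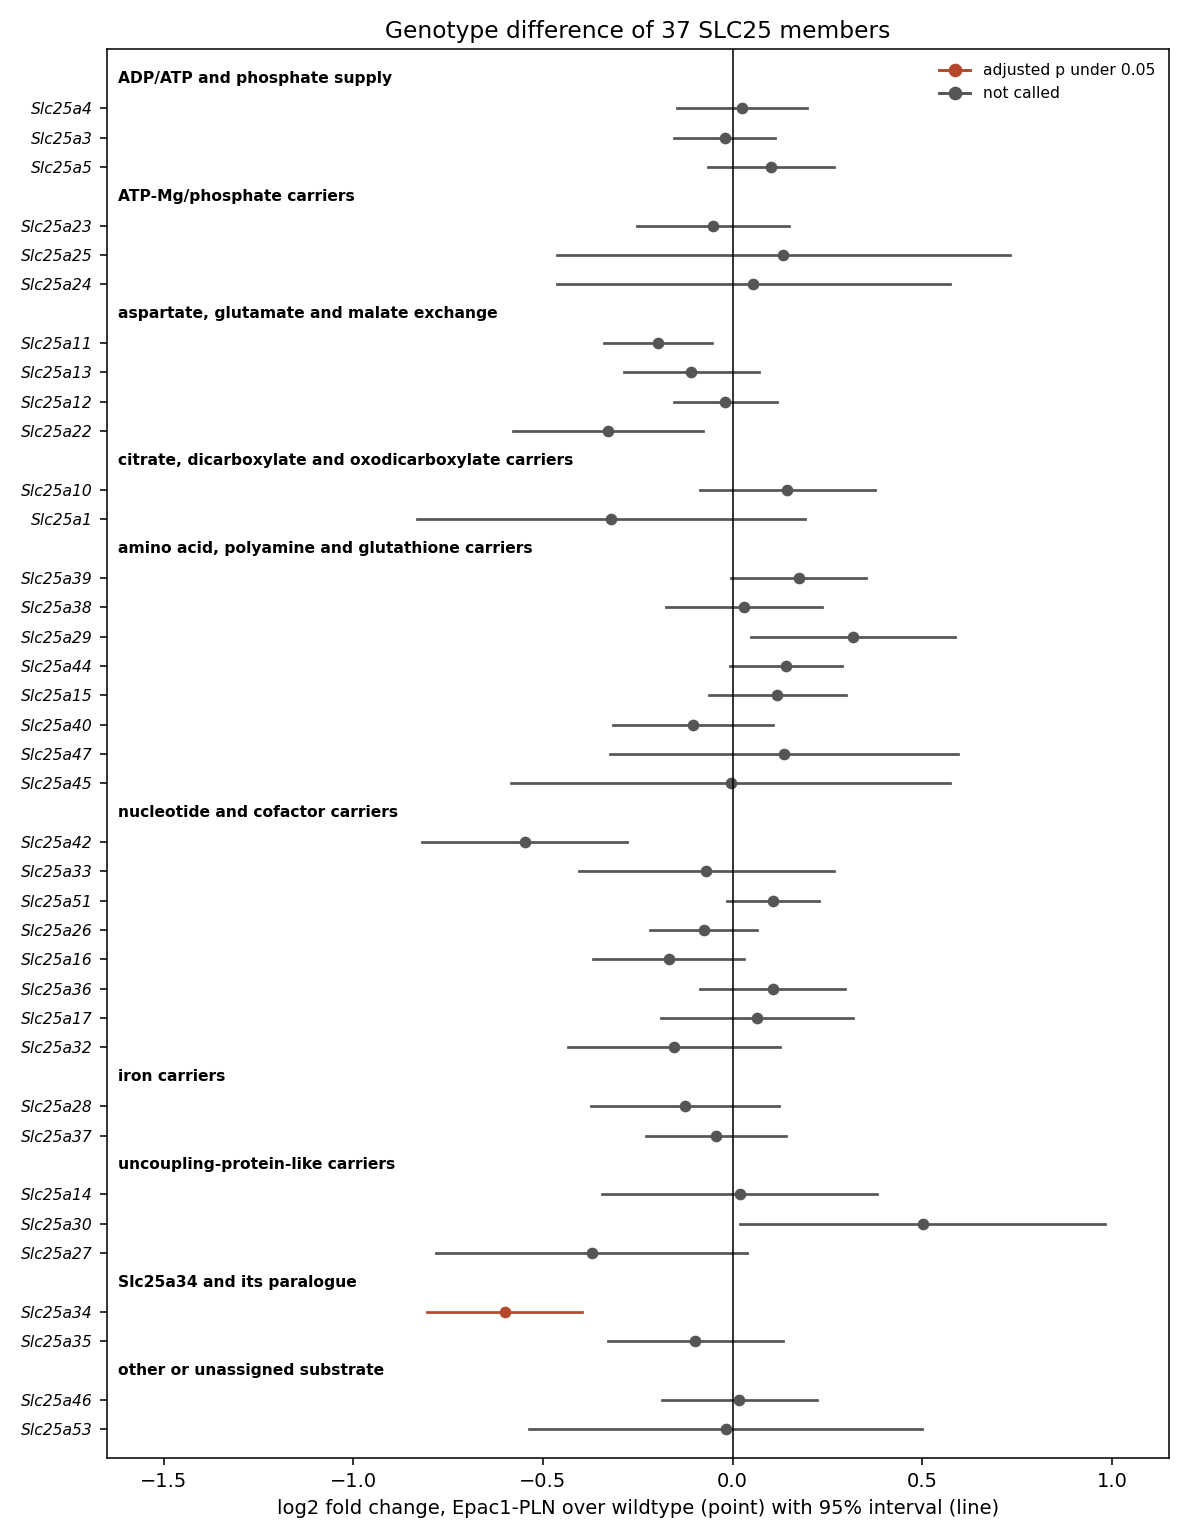
Log2 fold change of 37 SLC25 members, Epac1-PLN over wildtype, with its 95% interval from edgeR's quasi-likelihood fit, grouped by the solute carried and ordered by level within a group. Slc25a34 (-0.60) is the called member, and Slc25a42 (-0.55) is the other one whose interval lies wholly below -0.2.

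Slc25a34 (ENSMUSG00000040740) lies on chromosome 4 at 141618824 to 141623821 (mm10, minus strand), where no other gene of the table overlaps it. It stood at 246, 255, 236, 215 and 227 CPM in Epac1-PLN replicates 1 to 5, against 330, 276, 361, 411 and 428 CPM in wildtype replicates 1 to 5. The groups did not overlap, and wildtype replicate 2 came closest to the Epac1-PLN range. Groups without overlap were seen in 2 of the 38 members, both lower in Epac1-PLN, beside 2.75% of all genes, 1.24% of them lower. The group means were 236 ± 15.7 CPM in Epac1-PLN and 361 ± 61.6 CPM in wildtype cells (SD, n = 5 each). The log2 fold change was -0.60 ± 0.09 (SE), with a 95% interval of -0.80 to -0.40 and an adjusted p of 0.0135 (edgeR). This is a level that fell by 34.1%, read from 2653 to 3798 counts in Epac1-PLN and 3940 to 6934 counts in wildtype libraries. The call was lost in 4 alternatives: without wildtype replicate 1 (-0.60, adjusted p = 0.0667, edgeR), without Epac1-PLN replicate 3 (-0.58, adjusted p = 0.0631), with a replicate block (-0.60, adjusted p = 0.116) and in females alone (-0.76, adjusted p = 0.0625). The replicate block took the place of sex in the model. Over all 21 alternatives the adjusted p ran from 2.96e-10 to 0.116 (both edgeR) and the fold change from -0.76 to -0.54.

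Within Slc25a34 the spread was unequal. The coefficient of variation was 6.64% in Epac1-PLN and 17.1% in wildtype libraries. Among Epac1-PLN libraries, females and males averaged 236 CPM each. Among wildtype libraries, all 3 females lay above both males, with averages of 400 CPM for females and 303 CPM for males. The genotype-by-sex term was -0.41 ± 0.16 (SE) on the log2 scale, with an unadjusted p of 0.0274 and an adjusted p of 0.993 (edgeR), so a difference in the genotype effect between the sexes was not called.

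Slc25a35, the paralogue (ENSMUSG00000018740, chromosome 11, 68968131 to 68974365), was scarce. It stood at 9.27, 7.86, 7.13, 7.80 and 7.83 CPM in Epac1-PLN replicates 1 to 5, against 9.80, 9.79, 8.68, 7.45 and 7.11 CPM in wildtype replicates 1 to 5. The groups overlapped, and wildtype held both the highest and the lowest library. Its log2 fold change was -0.10 ± 0.11 (SE), with a 95% interval of -0.33 to 0.13 and an adjusted p of 0.783 (edgeR).

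Slc25a42 (ENSMUSG00000002346, chromosome 8, 70184340 to 70212305, minus strand, no overlapping gene) had the second smallest p of the family. It stood at 125, 106, 78.0, 85.8 and 93.9 CPM in Epac1-PLN replicates 1 to 5, against 146, 126, 129, 141 and 169 CPM in wildtype replicates 1 to 5. The groups did not overlap, though Epac1-PLN replicate 1 (124.9 CPM) and wildtype replicate 2 (126 CPM) nearly met. Means were 97.7 ± 18.4 CPM in Epac1-PLN and 142 ± 17.1 CPM in wildtype cells (SD, n = 5 each). The log2 fold change was -0.55 ± 0.12 (SE), with a 95% interval of -0.82 to -0.28 and an adjusted p of 0.0739 (edgeR). It was called in 3 of 21 alternatives, with DESeq2 (adjusted p = 0.00301), without a filter on low counts (adjusted p = 5.80e-08, edgeR) and without Epac1-PLN replicate 1 (adjusted p = 0.0362, edgeR). Over the 21 alternatives its adjusted p reached 0.270.

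**Figure D3:**
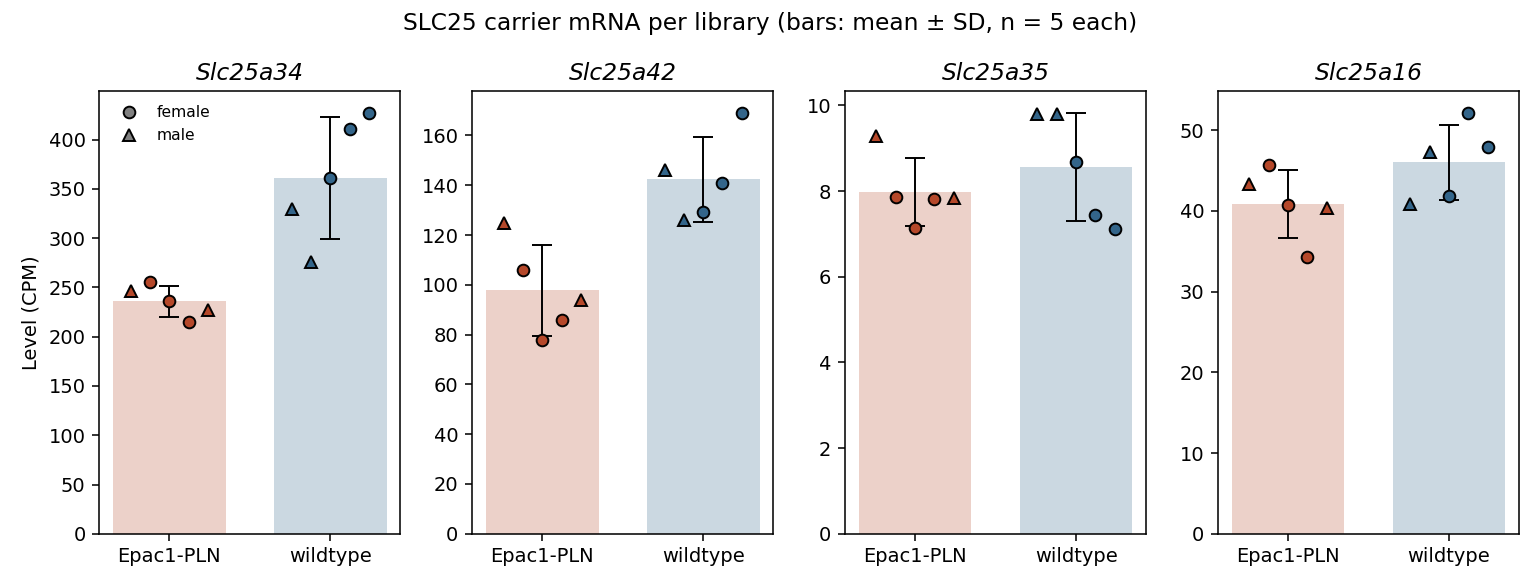
Level in CPM of Slc25a34, Slc25a42, Slc25a35 and Slc25a16 in each Epac1-PLN and wildtype library, with bars for the mean and error bars for the SD (n = 5 each), circles for females and triangles for males. The groups are separate for Slc25a34 and Slc25a42, and overlap for Slc25a35 and Slc25a16.

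The carriers of ATP synthesis included Slc25a4 and Slc25a3, the 2 most abundant members. Slc25a4 stood at 7626, 7220, 7876, 6728 and 8235 CPM in Epac1-PLN replicates 1 to 5, against 8428, 7024, 7148, 6443 and 8014 CPM in wildtype replicates 1 to 5. The highest and the lowest library were both wildtype. Its log2 fold change was 0.02, with a 95% interval of -0.15 to 0.20. Slc25a3 and Slc25a5, the ADP/ATP carrier of most other tissues, had fold changes of -0.02 (interval -0.15 to 0.11) and 0.10 (interval -0.07 to 0.27). Slc25a5 is known for processed pseudogenes, and how reads shared with them were counted is not stated in the sources, so its level is uncertain. Of these 3 members 0 were called, by edgeR, DESeq2 or limma-voom, and 0 had an unadjusted p under 0.05.

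The calcium-regulated carriers of ATP-Mg and phosphate set the size of the adenine nucleotide pool of the matrix. Slc25a23, their most abundant form, stood at 63.0, 71.9, 73.9, 93.1 and 67.2 CPM in Epac1-PLN replicates 1 to 5, against 76.2, 69.8, 85.5, 67.1 and 82.6 CPM in wildtype replicates 1 to 5. The groups overlapped, and Epac1-PLN replicate 4 was the highest of all. Log2 fold changes were -0.05 for Slc25a23, 0.05 for Slc25a24 and 0.13 for Slc25a25, and 0 of the 3 were called or had an unadjusted p under 0.05. The intervals of Slc25a24 and Slc25a25 were wide, -0.46 to 0.57 and -0.46 to 0.73. Slc25a25, which overlaps Naif1, was the most variable member among Epac1-PLN libraries, with a coefficient of variation of 39.5%, against 29.7% in wildtype libraries.

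In the malate-aspartate shuttle and glutamate group all 4 members lay lower in Epac1-PLN cells, and 0 were called. Slc25a11, which exchanges malate for oxoglutarate, stood at 794, 681, 709, 679 and 723 CPM in Epac1-PLN replicates 1 to 5, against 926, 778, 800, 757 and 847 CPM in wildtype replicates 1 to 5. Only Epac1-PLN replicate 1 reached into the wildtype range. Its log2 fold change was -0.20 ± 0.07 (SE), with an unadjusted p of 0.0105 and an adjusted p of 0.224 (edgeR). Slc25a11 overlaps Rnf167 on the other strand. Slc25a22, a glutamate carrier, stood at 41.1, 49.98, 49.5, 46.5 and 44.9 CPM in Epac1-PLN replicates 1 to 5, against 55.4, 41.3, 70.7, 50.6 and 75.1 CPM in wildtype replicates 1 to 5. Wildtype replicate 2 lay among the lowest libraries and wildtype replicates 3 and 5 above all others. Its log2 fold change was -0.33 ± 0.12 (SE), with an adjusted p of 0.256 (edgeR), and it was called in 1 of 21 alternatives, without a filter on low counts (adjusted p = 0.0117, edgeR). The aspartate-glutamate carriers Slc25a12 (aralar) and Slc25a13 (citrin) had fold changes of -0.02 and -0.11. Intervals were -0.16 to 0.12 and -0.29 to 0.07. Slc25a12 stood at 349 CPM in Epac1-PLN against 354 CPM in wildtype cells, and Slc25a13 at 310 against 334 CPM.

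Among carriers of citrate and dicarboxylates, Slc25a10, the dicarboxylate carrier, stood at 19.4, 14.2, 15.5, 15.9 and 14.7 CPM in Epac1-PLN replicates 1 to 5, against 17.1, 14.1, 14.7, 11.9 and 14.1 CPM in wildtype replicates 1 to 5. The groups overlapped, with replicate 1 the highest of each. Its log2 fold change was 0.14, and that of Slc25a1, the citrate carrier known for its role in fat synthesis, was -0.32 with a wide interval of -0.83 to 0.19. Neither was called, and neither had an unadjusted p under 0.05.

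Carriers of amino acids and glutathione mostly lay higher, 6 of 8, with a median log2 fold change of 0.13, and 0 were called by edgeR, DESeq2 or limma-voom. Slc25a29, a carrier of basic amino acids, stood at 25.6, 23.8, 37.3, 31.1 and 29.4 CPM in Epac1-PLN replicates 1 to 5, against 24.9, 19.6, 27.4, 20.7 and 25.5 CPM in wildtype replicates 1 to 5. Epac1-PLN replicates 3, 4 and 5 lay above every wildtype library. Its log2 fold change was 0.32 ± 0.12 (SE), with an unadjusted p of 0.0247 and an adjusted p of 0.311 (edgeR). Slc25a39, which carries glutathione, stood at 176, 166, 193, 190 and 178 CPM in Epac1-PLN replicates 1 to 5, against 170, 136, 179, 144 and 171 CPM in wildtype replicates 1 to 5. The groups overlapped, with the lowest 2 libraries in wildtype, and the fold change was 0.17 (adjusted p = 0.420, edgeR). Slc25a44, linked to branched-chain amino acids, stood at 26.1, 30.0, 33.7, 33.1 and 28.6 CPM in Epac1-PLN replicates 1 to 5, against 26.3, 25.5, 29.1, 27.7 and 28.6 CPM in wildtype replicates 1 to 5. Here the fold change was 0.14 (adjusted p = 0.428, edgeR). Epac1-PLN replicates 2, 3 and 4, all females, lay above every wildtype library. Of the other members, Slc25a15, the ornithine carrier, had a fold change of 0.12, Slc25a38, the glycine carrier of haem synthesis, 0.03, and Slc25a40, the second glutathione carrier, -0.11. Slc25a47 (0.14) and Slc25a45 (-0.01) were scarce, with intervals reaching 0.59 and 0.57.

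The nucleotide and cofactor carriers split into 3 higher and 6 lower members, with Slc25a42 at the lower end and Slc25a51, the NAD carrier, at the upper (0.11). Slc25a16, also linked to coenzyme A, stood at 43.3, 45.7, 40.8, 34.3 and 40.4 CPM in Epac1-PLN replicates 1 to 5, against 40.8, 47.4, 41.9, 52.2 and 47.9 CPM in wildtype replicates 1 to 5. Those ranges overlapped, at a fold change of -0.17 and an interval of -0.37 to 0.03. Slc25a51 stood at 90.2 ± 3.41 CPM in Epac1-PLN, against 83.8 ± 2.35 CPM in wildtype cells (SD, n = 5 each), a small spread for the family. Fold changes of the pyrimidine nucleotide carriers Slc25a33 and Slc25a36 were -0.07 and 0.10. They were -0.08 for Slc25a26, which imports S-adenosylmethionine, 0.06 for the peroxisomal carrier Slc25a17 and -0.16 for the folate and FAD carrier Slc25a32. Slc25a26 overlaps Lrig1. Apart from Slc25a42, the adjusted p-values of these members (edgeR) were 0.489 or above.

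Of the mitoferrins, which bring iron into the matrix, Slc25a28 (mitoferrin 2) stood at 18.7, 18.4, 20.6, 16.7 and 19.5 CPM in Epac1-PLN replicates 1 to 5, against 22.0, 20.4, 16.2, 18.8 and 25.4 CPM in wildtype replicates 1 to 5. Its groups overlapped, with the highest and the lowest library in wildtype. Fold changes were -0.13 for Slc25a28 and -0.04 for Slc25a37 (mitoferrin 1, best known from red cell precursors), and neither was called or had an unadjusted p under 0.05.

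The uncoupling-protein-like carriers were all scarce. Slc25a30 stood at 2.69, 3.83, 4.56, 6.47 and 4.16 CPM in Epac1-PLN replicates 1 to 5, against 2.85, 3.92, 2.78, 2.40 and 3.44 CPM in wildtype replicates 1 to 5. Epac1-PLN replicate 4 was the highest, and that library also had the highest endothelial sum (692 CPM, against 338 to 464 CPM in the other Epac1-PLN libraries). The part of other cell types in this value was not tested, and in bulk RNA fewer cells of a type cannot be told apart from less RNA per cell. The log2 fold change of Slc25a30 was 0.50 ± 0.22 (SE), with an interval of 0.02 to 0.98 and an adjusted p of 0.384 (edgeR). Without Epac1-PLN replicate 4 it was 0.33 (adjusted p = 0.530, edgeR), within a range of 0.33 to 0.80 over the 21 alternatives. Slc25a14 stood at 2.32, 2.96, 2.31, 3.40 and 3.16 CPM in Epac1-PLN replicates 1 to 5, against 2.90, 2.73, 2.95, 2.66 and 2.73 CPM in wildtype replicates 1 to 5. The wildtype libraries lay within the range of the Epac1-PLN libraries (fold change 0.02). Slc25a27 had a fold change of -0.37 with an interval of -0.78 to 0.04.

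Slc25a46, a family member of the outer membrane known for its part in mitochondrial shape, stood at 120, 131, 114, 94.4 and 115 CPM in Epac1-PLN replicates 1 to 5, against 108, 120, 114, 128 and 96.5 CPM in wildtype replicates 1 to 5. The groups overlapped along nearly their whole range (fold change 0.02, interval -0.19 to 0.22). Slc25a53, whose substrate is not settled, had a fold change of -0.02 with an interval of -0.54 to 0.50.

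**Figure D4:**
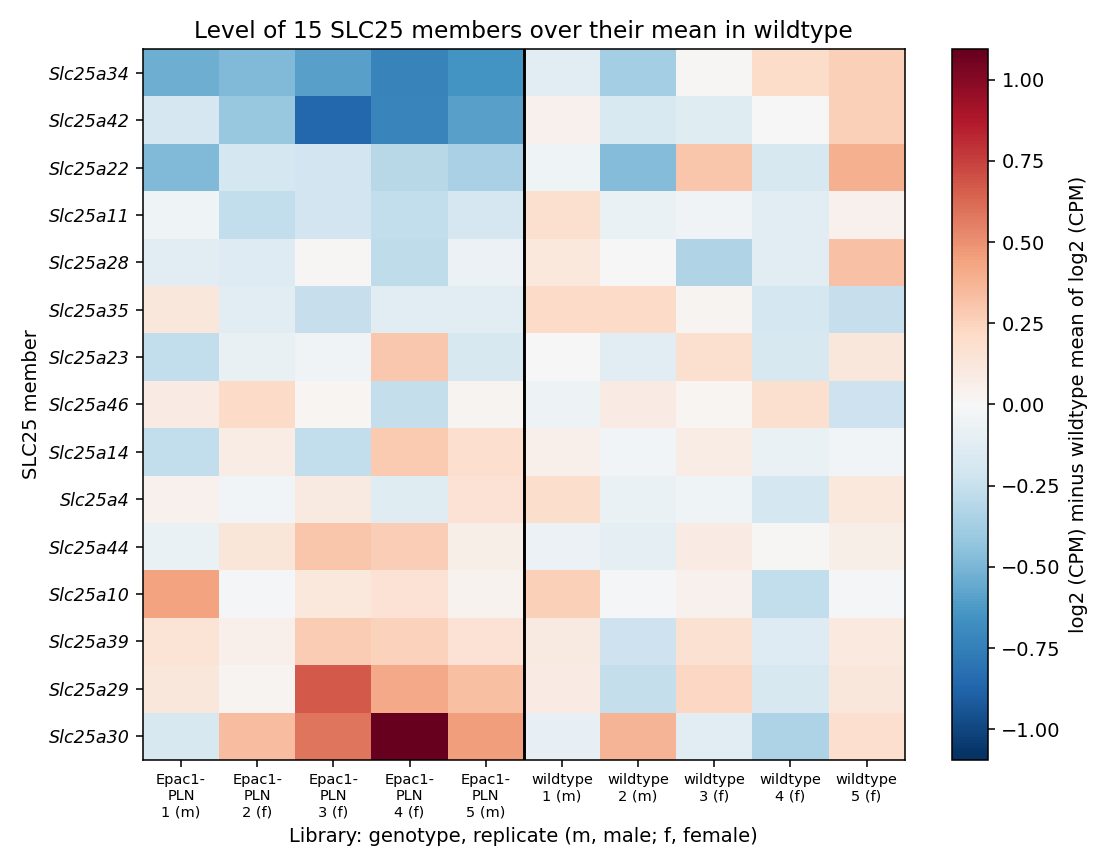
Level of 15 SLC25 members in each library as log2 CPM minus the mean of log2 CPM over the wildtype libraries, with the 5 Epac1-PLN libraries left of the 5 wildtype libraries and members ordered by their genotype fold change. Slc25a34 is below its wildtype mean in all 5 Epac1-PLN libraries, by 0.48 to 0.73, and Slc25a30 reaches 1.09 above it in Epac1-PLN replicate 4.

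Related carriers are set side by side as the ratio of their levels within a library, for 6 pairs chosen after their values were seen, and so as a description with no test. The ratio of Slc25a34 to Slc25a35 was 26.5, 32.5, 33.1, 27.6 and 29.0 in Epac1-PLN replicates 1 to 5, against 33.7, 28.1, 41.6, 55.2 and 60.1 in wildtype replicates 1 to 5. Male wildtype replicate 2 lay within the Epac1-PLN range. Male wildtype replicate 1, narrowly, and the 3 wildtype females lay above every Epac1-PLN library. The mean log2 ratio differed by -0.50, Epac1-PLN minus wildtype, and by -0.48 without Epac1-PLN replicate 4. For Slc25a42 to Slc25a16 it differed by -0.38, and by -0.40 without that library, with 4 of 5 Epac1-PLN libraries below every wildtype library. Differences in the log2 ratio were 0.29 for Slc25a39 to Slc25a40, 0.10 for Slc25a12 to Slc25a13, -0.08 for Slc25a4 to Slc25a5 and -0.07 for Slc25a28 to Slc25a37.

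Sex was the other labelled difference. Of the 38 members 0 were called with sex by edgeR, beside 0.34% of all genes, and 3 had an unadjusted p under 0.05 (7.89%, against 10.4% of all genes). These were Slc25a44, at 30.4 ± 2.47 CPM in 6 females and 26.6 ± 1.36 CPM in 4 males (log2 0.19 ± 0.07 SE, adjusted p = 0.369, edgeR), Slc25a22 (0.31 ± 0.12) and Slc25a35 (-0.26 ± 0.11). With sex and genotype crossed, 0 members and 0% of all genes were called. At an unadjusted p under 0.05 were 1 member, Slc25a34, and 3.75% of all genes.

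Lists of genes around the family are small, and at the 0.641% of all genes called, a count of 0 says little about them. Family members under other symbols include the uncoupling proteins and the outer membrane proteins Mtch1 and Mtch2. Of 4 tested, 0 were called by edgeR. Ucp3, the uncoupling protein of muscle, had the smallest p. It stood at 35.1, 70.0, 44.3, 30.9 and 36.1 CPM in Epac1-PLN replicates 1 to 5, against 93.5, 56.5, 88.5, 80.8 and 128 CPM in wildtype replicates 1 to 5 (log2 fold change -1.05 ± 0.23 SE, adjusted p = 0.0919, edgeR). Epac1-PLN replicate 2 and wildtype replicate 2 overlapped. DESeq2 called 1 gene of this list and limma-voom 0. Ucp2 had a fold change of 0.50 (adjusted p = 0.4998, edgeR). It was highest in Epac1-PLN replicate 4, at 43.5 CPM, against 13.98 to 22.8 CPM in the other libraries of both genotypes, and the part of that library's endothelial sum in it was not tested.

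Carriers reach the inner membrane through the TOM complex, the small TIM chaperones and the TIM22 complex. Of 15 tested genes of this import route 0 were called by any of the 3 tools and 0 had an unadjusted p under 0.05. Their median log2 fold change was -0.02, and they ran from -0.18 for Timm10 to 0.12. Of 13 inner membrane transporters of other families, which include the pyruvate carrier and the sideroflexins, 0 were called, with a median of -0.01. The 1 at an unadjusted p under 0.05 was Abcb6, a transporter linked to haem synthesis (0.26, adjusted p = 0.209, edgeR). Its level was 71.8 ± 6.97 CPM in Epac1-PLN, against 59.8 ± 5.57 CPM in wildtype cells (SD, n = 5 each), without overlap. A list of 14 genes of mitochondrial content, such as citrate synthase and respiratory chain subunits, had 12 lower members, a median of -0.07 and 0 calls by any of the 3 tools. Its summed level was 34173 ± 1958 CPM in Epac1-PLN, against 35367 ± 1661 CPM in wildtype cells (SD, n = 5 each). Sdhb, a subunit of succinate dehydrogenase, was its only member at an unadjusted p under 0.05 (-0.20, adjusted p = 0.211, edgeR). Like Abcb6, Sdhb had groups without overlap, as did 2.75% of all genes.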

How the data were processed

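Per the labels' protocols, RNA of isolated cardiomyocytes went through an Illumina TruSeq preparation and a HiSeq2000 run. Raw counts per Ensembl gene, as the authors deposited them, are used here; their scaled form of the table is not. Tools in the submitters' processing notes include the aligner STAR 2.3.0 and the counter HTSeq 0.5.4, and the build is mm10. Settings, annotation version and use of strand: not given in the sources used here, so reads of overlapping genes may share a count. No molecular identifiers are named, so the limit set by a count of 0 covers counting error alone.

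Genes were kept with filterByExpr of edgeR 4.0.16 on genotype (12629 genes), scaled by TMM and tested with robust quasi-likelihood F tests (R 4.3.3) on sex and genotype. The tests were checked on simulated counts. Changes simulated there were larger than that of any of the 38 members, with no sex effect, so smaller changes were not checked. Intervals are 95%, from the standard error taken as the fold change over the square root of F. Of the 38 members 23 had identical coordinates in GENCODE M21. Every pair of libraries within a genotype differed beyond sampling noise (chi-square over its degrees of freedom at 8.05 to 32.7 in 20 pairs). Alternatives used DESeq2 1.42.0, limma-voom (limma 3.58.1), other scalings, filters and covariates, and each library left out in turn.

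Described with values in every library were Slc25a34, Slc25a35, every called member, the 4 members of smallest p in each direction and the member of highest level per kb in each role. Slc25a16 was added for its values, as were the 6 pairs. The members and lists were chosen with earlier results of these data known. 1 family member left out by the rule, and 1 that is counted among the 38, are not reported here by name or value.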

Additional observations from a re-analysis of the deposited data

How the results depend on the processing

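Slc25a34 was lower in Epac1-PLN cells under all 21 alternatives and called in 17. It was not called with a replicate block (-0.60, adjusted p = 0.116, edgeR), in females alone (-0.76, adjusted p = 0.0625, edgeR), or without wildtype replicate 1 or Epac1-PLN replicate 3, and ranged from -0.68 to -0.54 with 1 library left out. In place of 81 genes over the whole table, 265 were called with DESeq2, 498 with no filter on low counts, 37 with no sex term, 3 with the replicate block, 4 in females alone, and 14 to 103 with 1 library left out. Leaving out Epac1-PLN replicate 1, 3 or 5 gave 46, 20 and 39, and leaving out wildtype replicates 1 to 5 gave 14, 44, 41, 41 and 41. Members called, 1 at first, were 2 with DESeq2, 3 with no filter, 0 with the replicate block, 0 in females alone, and 0 to 2 with 1 library left out. Members called with sex and with the genotype-by-sex term stayed at 0 under each alternative run. Whether replicate numbers pair the samples was not settled. The replicate block took the place of the sex term, and numbers 2 and 5 each join a male and a female library. Deviations of same-numbered libraries correlated at 0.35, -0.30, 0.14, -0.21 and 0.10 for numbers 1 to 5. Of the 5 Epac1-PLN libraries, 3 correlated best with the wildtype library of their own number. Directions also turned for members near no change. With 1 library left out, Slc25a4 ranged from -0.015 to 0.071, Slc25a46 from -0.043 to 0.083 and Slc25a14 from -0.061 to 0.091, and Slc25a23 was at 0.027 in females alone. The difference in summed level, -0.019 at first, ranged from -0.052 to 0.016 with 1 library left out, each shift under 1 SD, and was positive without wildtype replicate 1 (0.016), wildtype replicate 5 (0.0055) or Epac1-PLN replicate 4 (0.013). Depth limits the scarcest members most. The causes of these shifts were not tested.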
